A study of Homo sapiens with 18 samples.

Results

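MDA-MB-231 is a human breast cancer line that lacks the estrogen receptor and has a mesenchymal character. Its cells were compared after 15 days of doxycycline-induced G0S2 overexpression, at 0.5 ug/ml doxycycline, and without doxycycline at day 0, the control. Each group gave 3 libraries. All 14308 genes listed for the line were tested for the difference between these groups, which hold 6 of the 18 libraries in the series. The spread was estimated over 9 libraries of the line, with a day 3 group that also places the response in time. The other line, T47D, has the estrogen receptor and was scaled in a table of its own; its values are set beside a few genes with no test between lines. The design text of the series speaks of parental and Aza resistant cells in triplicate, groups that no sample label gives; the groups here follow the labels, and what that text refers to could not be settled. The labels give neither the vector nor whether the cells were 1 clone or a mixture. No cells given doxycycline without the introduced gene were analysed here, so effects of G0S2, of doxycycline, of the vector and of 15 days in culture cannot be told apart. The labels of these groups also do not say whether libraries came from separate cultures, so the spread behind each p-value is that of these libraries and may be technical.

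G0S2, the G0/G1 switch gene 2, encodes a small protein that binds PNPLA2 (adipose triglyceride lipase) and blocks its lipase activity, so that triglyceride stays in lipid droplets. MDA-MB-231 cells are known for constant activity of NF-kB, a family of transcription factors held in the cytoplasm by inhibitor proteins and known to drive chemokine and cytokine genes. The line is also known for low E-cadherin, high vimentin and the secretion of matrix-degrading enzymes.

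The line was checked against marker genes. The 12 of MDA-MB-231, with VIM, CD44 and AXL among them, were all listed, and their summed level was 8130 to 8166 CPM (read counts scaled to 1 M reads per library) at day 15 and 7922 to 7990.0 CPM in controls. Of 13 luminal markers of the other line 6 were listed, GATA3, AGR2, XBP1, SPDEF, KRT19 and ERBB3, with a summed level of 246 to 250.3 CPM at day 15 and 254 to 262 CPM in controls and none called. ESR1, PGR, FOXA1 and TFF1 were among the 7 that were not. The reads in listed genes came to 37.0 to 42.2 M per library at day 15 and 42.9 to 52.4 M in controls, so every day 15 library was shallower than every control library. Of markers of other cell types, 4 of 11 fibroblast genes were listed, with a summed level of 13.6 to 14.1 CPM at day 15 and 15.6 to 16.7 CPM in controls. PDGFRB was the member called among them (log2 fold -0.52, SE 0.104, limma adjusted p = 0.00213). In bulk RNA, fewer cells of a type and less RNA per cell cannot be told apart. Leukocyte markers (5 of 13 listed) summed to 78.0 to 86.3 CPM at day 15 and 79.2 to 81.3 CPM in controls, and endothelial markers (4 of 11) to 89.5 to 94.0 CPM at day 15 and 93.7 to 101 CPM in controls. CD3E, CDH5 and VWF were not listed, and no gene of the leukocyte or endothelial lists was called. Replication-dependent histones, whose RNA lacks a poly(A) tail, had a median log2 fold of -0.17 with 0 of 13 called by limma, and 2 lower without day 15 replicate 2. RMRP, another RNA without a poly(A) tail, had 11, 26 and 10 reads in the day 15 libraries, against 45, 35 and 45 reads in the controls, a log2 fold of -1.16 (SE 0.273, limma adjusted p = 0.00868), and lost its call when control replicate 1 or day 15 replicate 1 was left out (largest limma adjusted p over the 6 omissions 0.0684). The part of depth and of RNA selection in the results below was not tested.

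The induced gene was far above its control level in each library. G0S2 had 1209, 1294 and 1103 CPM in the day 15 libraries, against 25.5, 25.02 and 25.1 CPM in the controls. The groups were widely apart, and the log2 fold was 5.57 (SE 0.0459, limma adjusted p = 2.31e-14). The day 15 level lay slightly below that of day 3, by a log2 difference of -0.30 (SE 0.0459, limma adjusted p = 0.00554). Since counting was per gene, transcripts of the introduced copy and of the cell's own copy cannot be told apart.

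PNPLA2, the lipase that G0S2 inhibits, had lower RNA at day 15. It had 35.6, 33.3 and 31.9 CPM in the day 15 libraries, against 40.7, 40.1 and 38.2 CPM in the controls, with no overlap between the groups. The log2 fold was -0.24 (SE 0.0435, limma adjusted p = 0.000793), and the level was also below day 3 (log2 difference -0.16, SE 0.0435, limma adjusted p = 0.0289). ABHD5, which encodes the activator of PNPLA2, had a log2 fold of 0.019 (SE 0.028, limma adjusted p = 0.725), and PLIN2, a coat protein of lipid droplets, had -0.043 (SE 0.0329, limma adjusted p = 0.452); neither was called. The PNPLA2 difference from day 3 was not called without any 1 of the day 3 libraries or without day 15 replicate 3 (limma adjusted p 0.0794 to 0.1496).

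Among 33 listed genes of lipolysis and lipid droplets, 3 rose, 1 fell and 29 were not called, with a median log2 fold of 0.0021. Over all genes 3.42% were called higher and 4.77% lower in this comparison, and the median log2 fold was 0.0010. LPL, which encodes lipoprotein lipase, rose (log2 fold 0.59, SE 0.139, limma adjusted p = 0.00847). It had 2.46, 2.66 and 2.81 CPM in the day 15 libraries, against 1.79, 1.71 and 1.7 CPM in the controls, so that each day 15 library lay above each control. GPAT3 and LPIN1, which act in triglyceride synthesis, rose by a log2 fold of 0.17 (SE 0.0302) and 0.14 (SE 0.029). The count of falls was 5 when control replicate 3 was left out and 3 when day 15 replicate 2 was.

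Cholesterol export and synthesis genes held changes in both directions at day 15. Of the synthesis genes 7.14% were called higher and 7.14% lower, against 3.42% and 4.77% over all genes. ABCA1, which exports cholesterol from the cell, had 26.99, 26.9 and 26.7 CPM in the day 15 libraries, against 38.4, 37.9 and 35.6 CPM in the controls. The groups did not overlap and the log2 fold was -0.47 (SE 0.0448, limma adjusted p = 4.14e-08). Of 28 genes of cholesterol synthesis and its regulation 2 rose, HMGCS1 (0.14) and IDI1 (0.11), both enzymes of the mevalonate pathway. Among the 2 that fell was SREBF1, which encodes a SREBP transcription factor (-0.16). The rises and falls numbered 4 and 6 without control replicate 3 and 3 and 4 without day 15 replicate 2, with 1 fall without control replicate 1 or day 15 replicate 3. SREBF1 lost its call when control replicate 1 or day 15 replicate 3 was left out (limma adjusted p = 0.103 and 0.0796). Of 16 genes of fatty acid synthesis 4 fell, FASN, the fatty acid synthase (-0.17, SE 0.0325, limma adjusted p = 0.00274), ELOVL7 (-0.25), FADS3 (-0.15) and ELOVL1 (-0.098); without control replicate 1 or 2 the number was 2. Calls were lost without control replicate 1 for FADS3 and ELOVL1 (limma adjusted p 0.126 to 0.162) and without control replicate 2 for FADS3 and ELOVL1 (limma adjusted p 0.101 to 0.143). Losses were also found without day 15 replicate 1 for ELOVL1 (limma adjusted p = 0.169) and without day 15 replicate 2 for FADS3 (limma adjusted p = 0.0615).

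Over all genes 1173 (8.20%) were called at day 15 against control, 490 higher and 683 lower. Most changes were small: 989 of these genes had an absolute log2 fold under 0.3, and 4 rose and 6 fell by over 2-fold. With libraries scaled to equal medians the split turned to 658 higher and 502 lower, so the share of falls depends on the scaling. Moderation without trend and robust settings gave 76 rises and 156 falls, and the fit to the 6 libraries alone gave 299 and 477. Leaving out control replicate 1, 2 or 3 gave 168, 166 or 758 rises and 303, 291 or 1010 falls, and leaving out day 15 replicate 1, 2 or 3 gave 253, 855 or 262 rises and 445, 1042 or 459 falls. The genes described below were chosen with a preference for those called in each of these omissions, as 349 genes were. The largest rises and falls were also chosen to have no overlap between groups. For genes chosen by such a trait, the trait is not added support.

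**Figure D1:**
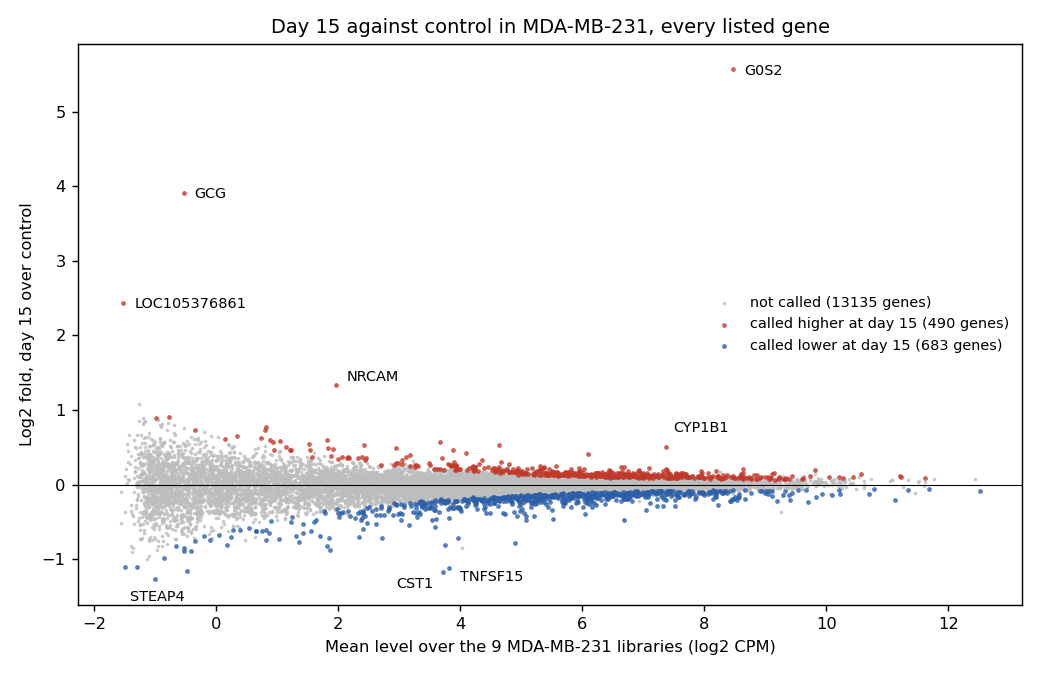
Log2 fold of day 15 over control (vertical axis) against the mean log2 CPM of each of 14308 genes over the 9 MDA-MB-231 libraries (horizontal axis); red points are the 490 genes called higher, blue points the 683 called lower and grey points the rest. G0S2 stands at 5.57, and most called genes lie close to 0.

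Some genes for secreted inflammatory signals were lower at day 15. Of 22 listed ligands 6 fell, none rose and 16 were not called, with a median log2 fold of -0.24 against 0.0010 over all genes. The falls were TNFSF15, a cytokine of the TNF family, CCL2, a chemokine that attracts monocytes, CXCL16, a chemokine anchored in the membrane, CXCL8 (interleukin-8), which attracts neutrophils, CSF1, the growth factor of macrophages, and TNFSF10 (TRAIL), which can trigger cell death. TNFSF15 had 9.71, 9.54 and 11.1 CPM in the day 15 libraries, against 20.5, 22.6 and 23.4 CPM in the controls. CCL2 had 3.6, 3.94 and 4.09 CPM in the day 15 libraries, against 5.98, 6.09 and 7.02 CPM in the controls. In both genes the highest day 15 library lay far below the lowest control. CXCL8 had 4.08, 3.94 and 4.42 CPM in the day 15 libraries, against 5.66, 5.66 and 6.02 CPM in the controls, again without overlap. The log2 folds were -1.13 (SE 0.0667, limma adjusted p = 3.23e-12) for TNFSF15, -0.70 (SE 0.101, limma adjusted p = 4.11e-05) for CCL2 and -0.47 (SE 0.0942, limma adjusted p = 0.00215) for CXCL8. CSF1 (-0.29, SE 0.0273) and TNFSF10 (-0.29, SE 0.0559) fell by less. CXCL16 (-0.48, SE 0.148, limma adjusted p = 0.0411) was not called in any of the 6 omissions, where its limma adjusted p reached 0.201. Between 5 and 7 ligands fell over the omissions.

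Part of the NF-kB list fell as well. Of its 30 listed genes 10 fell, none rose and 20 were not called, with a median of -0.073, and the falls numbered 7 to 11 over the omissions. ICAM1, the adhesion molecule that leukocytes bind and a known NF-kB target, had 32.2, 31.4 and 30.6 CPM in the day 15 libraries, against 43.1, 41.6 and 41.7 CPM in the controls, a fall of clear separation (log2 fold -0.42, SE 0.0395, limma adjusted p = 2.97e-08). The IkB family genes NFKBIA (-0.26, SE 0.0373, limma adjusted p = 3.5e-05), NFKBIE (-0.32, SE 0.0647, limma adjusted p = 0.00265) and BCL3 (-0.29, SE 0.0678, limma adjusted p = 0.00772), known targets of the factors their proteins bind, fell too. NFKBIA had 39.4, 39.5 and 39.4 CPM at day 15 and 46.5, 48.1 and 47.2 CPM in control cells, with the 3 day 15 libraries below the 3 controls. TNFAIP2 (-0.24), BIRC3, an inhibitor of cell death (-0.24), IER3 (-0.16) and TRAF1, an adaptor of TNF receptors (-0.30), completed the falls of this list together with TRAF2 (-0.18) and NFKB2 (-0.14). The subunit genes NFKB1 (-0.042) and REL (-0.0017) were not called. Among 29 receptors for such signals 3 fell, CXCR4 (-0.38), TNFRSF11B (-0.36) and TNFRSF10B (-0.13), and the count ranged from 1 without control replicate 1, control replicate 2 or day 15 replicate 1 to 4 without control replicate 3, which also gave 1 rise. The threshold was missed without control replicate 1 for TRAF2, NFKB2, CXCR4 and TNFRSF10B (limma adjusted p 0.0584 to 0.144) and without control replicate 2 for TRAF1, TRAF2, NFKB2, TNFRSF11B and TNFRSF10B (limma adjusted p 0.101 to 0.191). More calls ended without control replicate 3 for TNFRSF11B (limma adjusted p = 0.0635) and without day 15 replicate 1 for TRAF1, NFKB2, TNFRSF11B and TNFRSF10B (limma adjusted p 0.067 to 0.113). Others ended without day 15 replicate 3 for TRAF2, NFKB2 and TNFRSF11B (limma adjusted p 0.0796 to 0.126).

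The promoters of 3 of these genes are shown because they hold the letters of an NF-kB-like motif. The motif searched was GGAANTTCC, which reads the same on both strands, in RefSeq windows (GRCh38.p14) from 250 bases before to 50 bases after each gene's start. Each sequence runs 5′ to 3′ on the gene's strand, from 15 bases before its first motif to the base before the start, with the motif in capitals. In CXCL8 (chr4:73740417-73740568, plus strand) the capitals also mark TGANTCA, the AP-1 motif, which lies 137 bases before the start, with the NF-kB-like motif 91 bases before it. In ICAM1 (chr19:10270919-10271119, plus strand) the motif lies 186 bases before the start, and in NFKBIA (chr14:35404750-35404845, minus strand) 81 bases before it.
CXCL8: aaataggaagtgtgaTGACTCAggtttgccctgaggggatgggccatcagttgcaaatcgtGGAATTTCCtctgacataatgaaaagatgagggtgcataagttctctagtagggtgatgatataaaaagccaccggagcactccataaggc
ICAM1: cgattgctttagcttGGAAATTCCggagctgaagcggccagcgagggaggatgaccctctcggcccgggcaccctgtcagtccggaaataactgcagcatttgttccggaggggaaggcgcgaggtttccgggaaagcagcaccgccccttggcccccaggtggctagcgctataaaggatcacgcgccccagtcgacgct
NFKBIA: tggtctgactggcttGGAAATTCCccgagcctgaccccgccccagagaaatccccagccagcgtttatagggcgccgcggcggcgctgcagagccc

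Over all listed genes with a window, 117 of 10789 (1.08%) held GGAANTTCC. Of the ligand and NF-kB genes with a window 10 of 39 (25.6%) held it. Those called lower were CXCL8, ICAM1 and NFKBIA, which is 3 of 11 (27.3%). The other 7 holders were not called, with log2 folds of -0.18 for CXCL1, -0.011 for CXCL2, -0.22 for CXCL3, -0.042 for NFKB1, -0.0017 for REL, 0.00082 for NFKBIZ and 0.082 for MAP3K8. Among all genes called lower 7 of 516 (1.36%) held the motif, and among those called higher 0 of 398. TGANTCA, which also reads the same on both strands and does not overlap the first motif in CXCL8, stood in 532 windows (4.93%), in 24 of genes called lower (4.65%) and in 26 of genes called higher (6.53%). These matches are descriptions of letters and carry no statement on binding.

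Some epithelial genes were also lower. Of 28 listed junction genes 9 fell and none rose, with a median log2 fold of -0.10. CDH1, which encodes E-cadherin of the adherens junction, had 36, 33 and 32 reads in the day 15 libraries, against 65, 73 and 76 reads in the controls, or 0.87, 0.783 and 0.872 CPM at day 15 and 1.51, 1.6 and 1.45 CPM in control cells. Each day 15 library held fewer reads than each control, and the log2 fold was -0.81 (SE 0.186, limma adjusted p = 0.0072). The tight junction gene CLDN7 had 8.17, 8.47 and 7.74 CPM at day 15 and 11.5, 9.54 and 10.8 CPM in control cells, again without overlap (log2 fold -0.38, SE 0.0818, limma adjusted p = 0.00404). PARD6B, a polarity protein (-0.19), and PKP2, a desmosome plaque protein (-0.14), fell by less. CLDN4, JUP, F11R, NECTIN2 and DSP were called lower too. The junction falls numbered 5 without control replicate 1 and 4 without control replicate 2, and 1 rose without control replicate 3. In single omissions calls ended without control replicate 1 for CLDN4, JUP, F11R and NECTIN2 (limma adjusted p 0.0805 to 0.19) and without control replicate 2 for CLDN4, JUP, F11R, NECTIN2 and DSP (limma adjusted p 0.0642 to 0.189). Calls missed the threshold too without control replicate 3 for DSP (limma adjusted p = 0.127) and without day 15 replicate 1 for CLDN4, F11R and DSP (limma adjusted p 0.0615 to 0.134). The rest ended without day 15 replicate 2 for DSP (limma adjusted p = 0.102) and without day 15 replicate 3 for JUP (limma adjusted p = 0.0777).

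Of 22 epithelial regulators and keratins 8 fell and none rose, with a median of -0.14. ELF3, an epithelial transcription factor, had 3.07, 2.71 and 2.43 CPM in the day 15 libraries, against 4.91, 4.76 and 3.92 CPM in the controls. MAL2, which sorts proteins to the apical membrane, had 38.3, 38.5 and 37.3 CPM in the day 15 libraries, against 52.97, 52.8 and 52.3 CPM in the controls. Neither gene's groups overlapped, and MAL2 was nearly constant within each group. The log2 folds were -0.71 (SE 0.117, limma adjusted p = 0.000248) for ELF3 and -0.47 (SE 0.0365, limma adjusted p = 1.16e-09) for MAL2. KRT8 (-0.22, SE 0.0261, limma adjusted p = 1.69e-06) and KRT18 (-0.17, SE 0.0269, limma adjusted p = 0.000113), the paired keratins of simple epithelia, fell as well, and KRT7 (-0.20), SPINT1 (-0.44), SPINT2 (-0.14) and MUC1 (-0.32) made up the remaining falls. The count was 5 without control replicate 1 and 4 without day 15 replicate 3. RAB17, a transport protein of polarised epithelia, fell by a log2 fold of 0.62 (SE 0.133, limma adjusted p = 0.00388), but had an adjusted p of 0.0522 without control replicate 1. Calls ended without control replicate 1 for SPINT1, SPINT2 and MUC1 (limma adjusted p 0.0763 to 0.122) and without control replicate 2 for MUC1 (limma adjusted p = 0.162). Further calls were lost without control replicate 3 for MUC1 (limma adjusted p = 0.0733) and without day 15 replicate 1 for MUC1 (limma adjusted p = 0.1). More were lost without day 15 replicate 2 for MUC1 (limma adjusted p = 0.0664) and without day 15 replicate 3 for KRT7, SPINT1, SPINT2 and MUC1 (limma adjusted p 0.0553 to 0.0734).

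**Figure D2:**
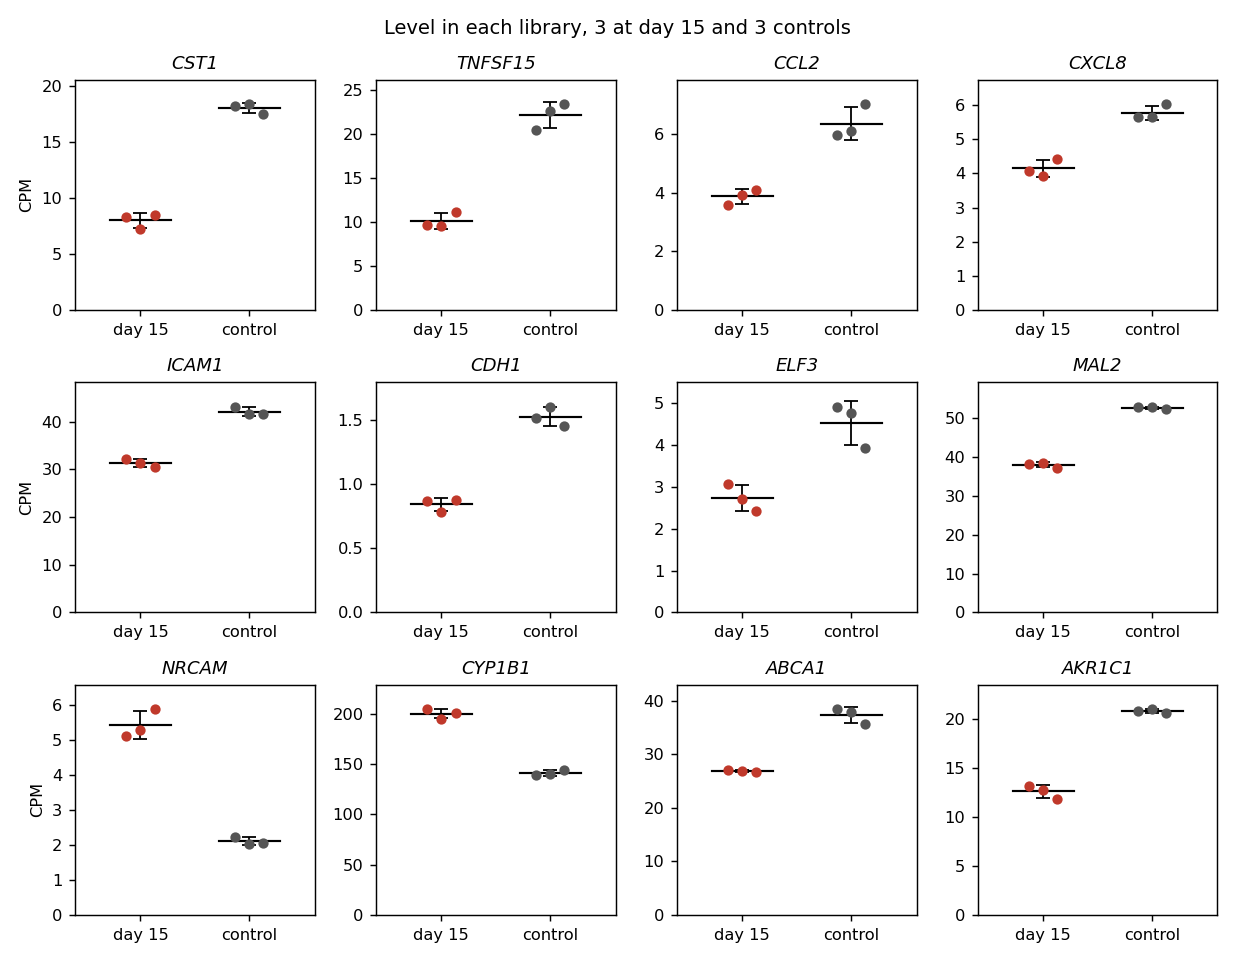
Level (CPM, vertical axes from 0) of 12 genes in each of the 3 day 15 libraries (red, left) and the 3 control libraries (grey, right); lines and bars are the mean ± SD. The groups do not overlap in any of these genes. Those among the largest rises and falls were chosen to have no overlap, and 24.3% of all genes do not overlap in either direction. NRCAM and CYP1B1 are higher at day 15 and the other 10 genes are lower.

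Mesenchymal genes did not move as 1 group. Of 40 listed regulators and matrix genes 4 rose, 10 fell and 26 were not called, with a median of -0.074. VIM, the filament protein vimentin, rose slightly (0.11, SE 0.0171, limma adjusted p = 6.98e-05) and had 2444, 2442 and 2481 CPM in the day 15 libraries, against 2302, 2248 and 2256 CPM in the controls. ZEB1, a repressor of epithelial genes, rose (0.15, SE 0.0341, limma adjusted p = 0.00734) but was not called without control replicate 1 (limma adjusted p = 0.0656). COL6A3, a chain of collagen VI, had 9.35, 9.97 and 9.76 CPM in the day 15 libraries, against 14.4, 14.7 and 14.3 CPM in the controls, a fall of 0.58 on the log2 scale (SE 0.0635). THBS1, the matrix protein thrombospondin 1, fell by 0.21 (SE 0.017), tenascin C (TNC) by 0.15 and fibronectin (FN1) by 0.083. FBN1 (0.16) and COL13A1 (0.088) rose. The falls numbered 6 without control replicate 1 or day 15 replicate 1 and 2 without control replicate 2, and the rises 1 without control replicate 1. Some of these calls were lost without control replicate 1 for FBN1 and COL13A1 (limma adjusted p 0.0689 to 0.0983) and without control replicate 2 for TNC, FN1 and COL13A1 (limma adjusted p 0.097 to 0.166). Losses also came without control replicate 3 for COL13A1 (limma adjusted p = 0.0881) and without day 15 replicate 1 for FN1 and COL13A1 (limma adjusted p 0.0694 to 0.0781). The last losses came without day 15 replicate 2 for FN1 (limma adjusted p = 0.0639) and without day 15 replicate 3 for COL13A1 (limma adjusted p = 0.193).

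Some integrin beta chains were lower. Of 15 listed integrins 4 fell and none rose, with a median of -0.024; leaving out control replicate 3 gave 1 rise and leaving out day 15 replicate 2 gave 2. ITGB3, the beta 3 chain that pairs with alpha V, had 8.29, 8.28 and 8.26 CPM in the day 15 libraries, against 10.5, 11.6 and 11.6 CPM in the controls. The groups did not overlap (log2 fold -0.43, SE 0.0767, limma adjusted p = 0.000592). ITGB5 (-0.19, SE 0.0328, limma adjusted p = 0.00051) and ITGB4, the laminin-binding chain of hemidesmosomes (-0.14, SE 0.0291, limma adjusted p = 0.00282), fell by less, and ITGA3 (-0.077) fell least. The ITGA3 call was lost without control replicate 1 (limma adjusted p = 0.214), control replicate 2 (limma adjusted p = 0.154), day 15 replicate 1 (limma adjusted p = 0.0691) or day 15 replicate 3 (limma adjusted p = 0.0816).

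Several inhibitors of proteases fell. Of 25 listed inhibitors 10 fell and 2 rose, and of 27 listed matrix proteases 4 fell and 2 rose; the difference between these counts was not tested. The cystatins, inhibitors of cysteine proteases, led the list. CST1 (chr20:23747553-23751268, minus strand, GENCODE 29 on GRCh38) had 8.26, 7.26 and 8.48 CPM in the day 15 libraries, against 18.2, 18.4 and 17.5 CPM in the controls. Each day 15 library was below each control by more than the spread within either group, and the log2 fold was -1.17 (SE 0.0672, limma adjusted p = 2.67e-12). CST4 (chr20:23685640-23689040), a neighbour on the same strand, had 4.76, 4.27 and 5.4 CPM in the day 15 libraries, against 8.47, 7.83 and 7.42 CPM in the controls (log2 fold -0.71, SE 0.0899, limma adjusted p = 5.87e-06). CST2 (chr20:23823769-23826731) had 54, 42 and 45 reads in the day 15 libraries, against 90, 62 and 115 reads in the controls and a log2 fold of -0.63 (SE 0.181, limma adjusted p = 0.0294); it was not called without control replicate 1, control replicate 3 or day 15 replicate 2 (limma adjusted p up to 0.165). CST3, cystatin C (chr20:23626706-23638473), had 103, 101 and 100.1 CPM in the day 15 libraries, against 121, 121 and 112 CPM in the controls (log2 fold -0.22, SE 0.0321, limma adjusted p = 5.06e-05). CST1, CST2 and CST4 are close in sequence, so reads could be split among them by the counting.

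Further inhibitors changed by less. TIMP3 (-0.22, SE 0.0206, limma adjusted p = 4.07e-08), TIMP2 (-0.15, SE 0.0219, limma adjusted p = 6.17e-05) and TIMP1 (-0.14), the tissue inhibitors of metalloproteinases, fell, while SERPINE2, an inhibitor of thrombin and urokinase (0.15, SE 0.035, limma adjusted p = 0.00832), and TFPI (0.11) rose. Inhibitor falls numbered 6 without control replicate 1 or 2, and 8 or 9 in the other omissions, and 1 inhibitor rose without control replicate 1 or 2 or day 15 replicate 1. Among proteases, ADAMTS12 fell by 0.16 (SE 0.029) with its call held in each omission, MMP11 (-0.68), CTSD (-0.13) and PLAT (-0.11) fell, and MMP19 (0.37) and ADAM9 (0.093) rose. Protease falls ranged from 1 without control replicate 1 or 2, and 2 without day 15 replicate 1 or 3, to 8 without control replicate 3 and 10 without day 15 replicate 2. Protease rises numbered 0 without control replicate 2 and 1 without control replicate 1, day 15 replicate 1 or day 15 replicate 3. Further calls ended without control replicate 1 for TIMP1, TFPI, MMP11, CTSD, PLAT and ADAM9 (limma adjusted p 0.0591 to 0.143) and without control replicate 2 for TIMP1, TFPI, MMP11, CTSD, PLAT, MMP19 and ADAM9 (limma adjusted p 0.0741 to 0.133). The threshold was also missed without day 15 replicate 1 for TFPI, MMP11, PLAT and MMP19 (limma adjusted p 0.0516 to 0.101) and without day 15 replicate 3 for TIMP1, MMP11, CTSD and MMP19 (limma adjusted p 0.0553 to 0.116).

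Some ligands and targets of the TGF-beta family were lower. TGF-beta and related ligands signal through SMAD proteins, and ID genes are well known targets of their BMP branch. Of 51 listed genes 11 fell, 1 rose (TGFBR2, a receptor, 0.086) and 39 were not called, with a median of -0.048; the falls numbered 8 to 12 over the omissions, and the rises 2 without control replicate 3 and 3 without day 15 replicate 2. GDF15, a ligand induced by stress, had 2.49, 2.66 and 2.18 CPM in the day 15 libraries, against 4.26, 4.06 and 3.6 CPM in the controls. INHBB, a chain of activin B, had 8.92, 9.47 and 10.4 CPM in the day 15 libraries, against 14.2, 13.4 and 12.7 CPM in the controls. Both were lower in every day 15 library, with log2 folds of -0.69 (SE 0.125, limma adjusted p = 0.000826) for GDF15 and -0.48 (SE 0.0737, limma adjusted p = 9.85e-05) for INHBB. FST, the activin binder follistatin (-0.30, SE 0.0325, limma adjusted p = 6.03e-07), BMP4, a ligand (-0.16, SE 0.0241, limma adjusted p = 5.74e-05), BMP1, a protease that matures matrix proteins (-0.24, SE 0.0479, limma adjusted p = 0.00249), and ID2, a repressor of differentiation factors (-0.42, SE 0.0937, limma adjusted p = 0.00503), fell as well. CCN1 (-0.17, SE 0.0192, limma adjusted p = 7.26e-07) and CCN2 (-0.11, SE 0.0234, limma adjusted p = 0.00359), secreted matricellular proteins, are counted here and among targets of YAP and TEAD. Of 24 genes of that second list 7 fell, 1 rose and 16 were not called, with a median of -0.061 and 5 to 7 falls over the omissions; F3, tissue factor (-0.14), and ANKRD1 (-0.13) were among the falls, and the rise was NT5E, the ectoenzyme CD73 (0.20, SE 0.0198, limma adjusted p = 1.32e-07). The TGFBR2 call was lost without control replicate 1 (limma adjusted p = 0.122), control replicate 2 (limma adjusted p = 0.0695) or day 15 replicate 1 (limma adjusted p = 0.108).

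Growth factor and MAPK feedback genes went both ways. Of 39 listed genes 4 rose and 6 fell, with a median of -0.015. DUSP1 (-0.23, SE 0.046, limma adjusted p = 0.00254) and DUSP4 (-0.13, SE 0.0217, limma adjusted p = 0.000265), phosphatases that switch off MAP kinases, and AREG, the EGFR ligand amphiregulin (-0.21, SE 0.0412, limma adjusted p = 0.00154), fell. ETV1, an ETS factor (0.21, SE 0.028, limma adjusted p = 1.81e-05), EGFR itself (0.096), its ligand TGFA (0.10) and HMGA2 (0.16) rose. The rises numbered 2 without control replicate 1 or day 15 replicate 1 and 1 without control replicate 2, and the falls 10 without day 15 replicate 2. In the Wnt list (32 listed) WNT7B (0.22, SE 0.0422, limma adjusted p = 0.00167) and FZD1 (0.11) rose, and the inhibitor gene DKK1 (-0.21, SE 0.0226, limma adjusted p = 2.91e-07) and FZD2 (-0.16) fell. That is 6.25% higher and 6.25% lower, against 3.42% and 4.77% over all genes. The Wnt rises numbered 1 in each omission but that of control replicate 3, and the falls 1 without control replicate 1 or 2 and 4 without control replicate 3. Of 21 Notch genes 0 were called by limma, with 7 whose groups did not overlap, 2 higher and 5 lower, where 24.3% of all genes did not overlap in either direction; without control replicate 3 or day 15 replicate 2, 1 was called lower. Calls were lost without control replicate 1 for TGFA, HMGA2, FZD1 and FZD2 (limma adjusted p 0.0746 to 0.143) and without control replicate 2 for EGFR, TGFA, HMGA2, FZD1 and FZD2 (limma adjusted p 0.0508 to 0.159). They were lost too without day 15 replicate 1 for TGFA, HMGA2 and FZD1 (limma adjusted p 0.0656 to 0.113) and without day 15 replicate 2 for FZD1 (limma adjusted p = 0.063). Further losses occurred without day 15 replicate 3 for HMGA2, FZD1 and FZD2 (limma adjusted p 0.076 to 0.123).

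Adhesion and guidance genes known from the nervous system held a rise as well as several falls. Of 53 listed genes 3 rose and 11 fell, with a median of -0.032. NRCAM, a cell adhesion protein of the L1 family (chromosome 7), had 5.12, 5.29 and 5.89 CPM in the day 15 libraries, against 2.23, 2.02 and 2.07 CPM in the controls. Each day 15 library stood far above each control, and the log2 fold was 1.34 (SE 0.103, limma adjusted p = 1.11e-09). L1CAM, the founding member of that family, had 116, 114 and 115 CPM in the day 15 libraries, against 151, 144 and 143 CPM in the controls, without overlap and in the opposite direction (log2 fold -0.35, SE 0.0283, limma adjusted p = 2.68e-09). The neuropilins, receptors for semaphorins and VEGF, were split in the same way: NRP2 fell (-0.34, SE 0.0413, limma adjusted p = 3.21e-06), whereas NRP1 rose (0.15, SE 0.0207, limma adjusted p = 2.13e-05). NRP2 had 39.2, 41.9 and 43.8 CPM at day 15 and 50.5, 53.4 and 54.3 CPM in control cells, and NRP1 had 585, 590.1 and 602 CPM at day 15 and 529, 535 and 535 CPM in control cells. SEMA5A (-0.31), SEMA6B (-0.21), PLXNB2 (-0.17), EPHA2 (-0.22) and MCAM (-0.13) fell with calls held in each omission, and SEMA3A (0.16) rose. The falls numbered 7 without control replicate 1, and the rises 5 without day 15 replicate 2. The SEMA3A call was lost without control replicate 2 (limma adjusted p = 0.0641) or day 15 replicate 3 (limma adjusted p = 0.0533).

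The aldo-keto reductases of family 1C, which reduce steroids and other carbonyls, fell together, while 4 other genes of the NRF2 list rose. AKR1C1 had 13.2, 12.8 and 11.8 CPM in the day 15 libraries, against 20.8, 20.9 and 20.6 CPM in the controls. AKR1C2 had 1.5, 1.71 and 1.69 CPM in the day 15 libraries, against 2.91, 2.54 and 2.77 CPM in the controls. AKR1C3 had 52.4, 55.04 and 49.02 CPM in the day 15 libraries, against 66.5, 64.2 and 61.8 CPM in the controls. None of these genes' groups overlapped, and the log2 folds were -0.72 (SE 0.059, limma adjusted p = 2.68e-09) for AKR1C1, -0.72 (SE 0.146, limma adjusted p = 0.00236) for AKR1C2 and -0.30 (SE 0.0423, limma adjusted p = 3.49e-05) for AKR1C3. They lie side by side on chromosome 10, at 4963253 to 4983283 (AKR1C1), 4987400 to 5018031 (AKR1C2) and 5035354 to 5107686 (AKR1C3), and their near-identical transcripts could share reads. NQO1, a quinone reductase (0.15, SE 0.0265, limma adjusted p = 0.000549), SLC7A11, the cystine transporter (0.20, SE 0.031, limma adjusted p = 0.000133), the ferritin chain FTH1 (0.14) and NFE2L2, which encodes NRF2 (0.11), rose, and AKR1B1 (-0.28) fell, which makes 4 rises and 4 falls among 30 listed genes. The rises numbered 2 without control replicate 2. The threshold was missed without control replicate 1 for FTH1, NFE2L2 and AKR1B1 (limma adjusted p 0.123 to 0.175) and without control replicate 2 for FTH1, NFE2L2 and AKR1B1 (limma adjusted p 0.073 to 0.11). Losses were also found without control replicate 3 for FTH1 (limma adjusted p = 0.0501) and without day 15 replicate 1 for NFE2L2 and AKR1B1 (limma adjusted p 0.0849 to 0.131). The remaining losses occurred without day 15 replicate 3 for NFE2L2 and AKR1B1 (limma adjusted p 0.0579 to 0.0759).

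Some metallothioneins, small proteins that bind zinc and copper, were higher. Of 5 listed genes 3 rose and none fell, in the full set and in each omission, with a median of 0.22. MT1X had 14.4, 14.8 and 15.1 CPM in the day 15 libraries, against 11.7, 11.5 and 11.5 CPM in the controls, and MT1E had 48.5, 43.8 and 45.1 CPM in the day 15 libraries, against 39.3, 40.2 and 37.5 CPM in the controls. The day 15 libraries were above the controls in both, and the log2 folds were 0.35 (SE 0.0592, limma adjusted p = 0.000331) for MT1X, 0.23 (SE 0.0454, limma adjusted p = 0.00185) for MT1E and 0.13 (SE 0.0285, limma adjusted p = 0.0043) for MT2A. These genes are near-identical copies, so reads could be split among them.

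CYP1B1, an enzyme that oxidises estrogens and polycyclic compounds and is a known target of the dioxin receptor, rose. It had 205, 195 and 201 CPM in the day 15 libraries, against 139, 140.1 and 145 CPM in the controls, a separation much wider than the spread in either group (log2 fold 0.50, SE 0.0266, limma adjusted p = 5.11e-13). TIPARP, another known target of that receptor, rose by 0.24 on the log2 scale (SE 0.029, limma adjusted p = 3.5e-06), and CYP1A1 (0.23, SE 0.0929, limma adjusted p = 0.114) was not called.

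Some genes of mitosis and of the ribosome were higher by small amounts. Of 45 mitosis genes 8 rose and none fell, with a median of 0.043. The rises are 17.8% of the list, against 3.42% over all genes. Among the 759 genes with a mean log2 CPM of 8 or more the share was 9.22%. TTK, a spindle checkpoint kinase (0.16, SE 0.032, limma adjusted p = 0.00282), and TOP2A, the topoisomerase of condensing chromosomes (0.11, SE 0.0197, limma adjusted p = 0.00104), were called in each omission. TOP2A had 1428, 1443 and 1464 CPM at day 15 and 1312, 1343 and 1374 CPM in control cells, with each day 15 library above each control. Leaving out controls 1, 2 and 3 in turn, the mitosis rises numbered 3, 2 and 13, and for day 15 replicates 1, 2 and 3 they numbered 4, 16 and 3, with 1 fall in the omission of replicate 2. With moderation without trend and robust settings, neither the mitosis nor the ribosome list held a call. Of 42 replication genes none rose and 1 fell, E2F1 (-0.17, SE 0.0363, limma adjusted p = 0.00433), whose call was lost without control replicate 2 (limma adjusted p = 0.0513). The share that fell, 2.38%, was below the 4.77% over all genes. Without control replicate 3 the replication list gave 1 rise and 5 falls, and without day 15 replicate 2 it gave 3 rises and 4 falls. The proliferation gene CCND1 (cyclin D1, -0.014) and MYC (-0.0078) were not called, and their sign turned with equal library medians.

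Of 77 cytosolic ribosomal protein genes 17 (22.1%) rose and none fell, with a median of 0.031. Over all genes 3.42% were called higher. The background differs for abundant transcripts: of the 759 genes that averaged 8 or more on the log2 CPM scale, 9.22% were called higher and 8.56% lower. RPL26 had 398, 406 and 434 CPM in the day 15 libraries, against 362, 377 and 383 CPM in the controls, a log2 fold of 0.14 (SE 0.0278, limma adjusted p = 0.00196). RPS25 (0.13, SE 0.0243, limma adjusted p = 0.00169) and RPS4X (0.10, SE 0.0193, limma adjusted p = 0.00163) kept their calls in each omission, as RPL26 did. Omitting control replicate 1, 2 or 3 left 5, 4 or 14 rises, the last with 1 fall, and omitting day 15 replicate 1, 2 or 3 left 12, 19 or 7 rises, with 7 falls in the case of replicate 2. Ribosomal protein genes have many processed copies in the genome, which makes their counts uncertain. Of 52 mitochondrial ribosomal protein genes 4 rose (7.69%) and 2 fell (3.85%), against 3.42% and 4.77% over all genes. Without control replicates 1, 2 and 3 in turn the mitochondrial rises numbered 2, 1 and 4 and the falls 0, 0 and 4, and without day 15 replicates 1, 2 and 3 the rises numbered 1, 6 and 1 and the falls 1, 3 and 0. Of 54 nuclear genes of the respiratory chain 1 fell (CYC1, -0.15), which is 1.85% and below the share over all genes. Leaving out control replicate 3 gave 5 respiratory falls and leaving out day 15 replicate 2 gave 6, with 1 rise each. The CYC1 call was lost without control replicate 1 (limma adjusted p = 0.176), control replicate 2 (limma adjusted p = 0.134) or day 15 replicate 3 (limma adjusted p = 0.13).

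**Figure D3:**
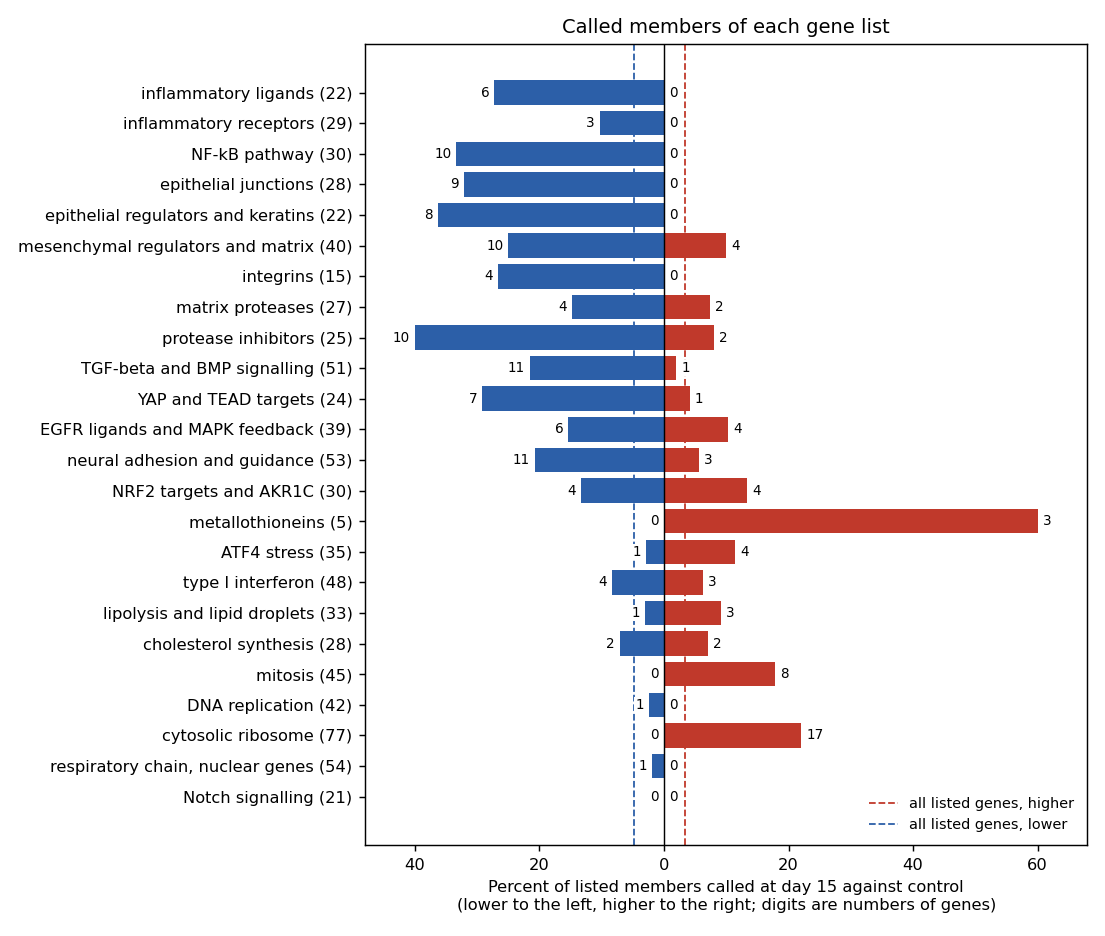
Percent of listed members called lower (blue, left) and higher (red, right) at day 15 against control for 24 gene lists, with the number of listed members in brackets and the number called at each bar. Dashed lines are the percent over all genes, 4.77% lower and 3.42% higher. Inflammatory ligand, NF-kB, epithelial and protease inhibitor lists extend to the left. So do the mesenchymal (25.0%), integrin (26.7%), YAP and TEAD (29.2%), TGF-beta (21.6%) and neural (20.8%) lists. Inflammatory receptors reach 10.3%. Metallothioneins, mitosis and ribosome extend furthest to the right.

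Interferon and antigen presentation genes held calls in both directions. Of the interferon genes 6.25% were called higher and 8.33% lower, and of the antigen presentation genes 4.35% and 8.70%. The shares over all genes were 3.42% and 4.77%. Of 48 interferon genes 3 rose and 4 fell, with a median of -0.0082. SAMD9L (0.25, SE 0.0434, limma adjusted p = 0.000542) and SAMD9 (0.18, SE 0.038, limma adjusted p = 0.00352), neighbouring antiviral genes, rose, as did IFI44 (0.22). TRIM22, an antiviral ubiquitin ligase, had 2.17, 1.95 and 1.8 CPM in the day 15 libraries, against 2.79, 3.05 and 3.6 CPM in the controls, and fell (-0.65, SE 0.128, limma adjusted p = 0.00194). BST2, tetherin, which holds budding virus at the cell surface, had 67.1, 66.1 and 61.5 CPM in the day 15 libraries, against 79.99, 74.98 and 74.9 CPM in the controls, and fell too (-0.24, SE 0.0362, limma adjusted p = 8.03e-05). IFI27 (-0.25) and IRF1 (-0.16) were the remaining falls. In T47D, fitted on its own 9 libraries, the day 15 log2 folds were 1.64 (SE 0.336) for TRIM22, 0.57 (SE 0.036) for BST2, 1.69 (SE 0.136) for SAMD9L and 1.72 (SE 0.108) for SAMD9; the difference between lines was not tested. The interferon falls numbered 2 without control replicate 1, control replicate 2 or day 15 replicate 1, and the rises 5 without day 15 replicate 2. Of 23 antigen presentation genes B2M (0.074) rose, and HLA-C (-0.13) and TAPBP, which loads peptides on class I molecules (-0.12), fell. Omitting control replicate 3 gave 6 falls and 2 rises in antigen presentation, omitting day 15 replicate 2 gave 7 falls, and omitting control replicate 1, control replicate 2 or day 15 replicate 1 gave 1 fall. Among 35 ATF4 stress genes WARS1 (0.14), SLC7A11, PSAT1 (0.099) and EPRS1 (0.078) rose and GDF15 fell, with 2 rises without control replicate 2 or day 15 replicate 1. In single omissions calls ended without control replicate 1 for IFI44, IFI27, IRF1, B2M, HLA-C and EPRS1 (limma adjusted p 0.0892 to 0.203) and without control replicate 2 for IFI44, IFI27, IRF1, B2M, HLA-C, PSAT1 and EPRS1 (limma adjusted p 0.0641 to 0.271). More calls ended without control replicate 3 for PSAT1 (limma adjusted p = 0.057) and without day 15 replicate 1 for IFI27, IRF1, B2M, HLA-C, PSAT1 and EPRS1 (limma adjusted p 0.0572 to 0.127). Others ended without day 15 replicate 2 for B2M and PSAT1 (limma adjusted p 0.067 to 0.0814) and without day 15 replicate 3 for IFI44, IFI27, IRF1, HLA-C and EPRS1 (limma adjusted p 0.0629 to 0.147).

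Above a mean log2 CPM of 1 and without overlap between groups, the largest rises after G0S2 and NRCAM were CUBN, a receptor for vitamin uptake (0.60, SE 0.12, limma adjusted p = 0.00239), LPL, ZNF641, a zinc finger gene (0.57, SE 0.0653, limma adjusted p = 1.46e-06), C21orf91 (0.54, SE 0.0511, limma adjusted p = 4.14e-08), SLC16A6, a member of the monocarboxylate transporter family (0.53, SE 0.107, limma adjusted p = 0.00251), ZFHX2 (0.51, SE 0.132, limma adjusted p = 0.0173), CYP1B1 and ENOX1 (0.49, SE 0.0906, limma adjusted p = 0.00109). ZFHX2 was not called without control replicate 1 (limma adjusted p = 0.0716) or control replicate 2 (0.0557). ZNF641 had 16.1, 14.3 and 14.4 CPM in the day 15 libraries, against 10.4, 10.3 and 9.52 CPM in the controls, and SLC16A6 had 6.93, 6.005 and 6.38 CPM at day 15 and 5.19, 3.88 and 4.36 CPM in control cells. In both genes every day 15 library exceeded every control, as the choice of these genes required.

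The largest falls included, beside CST1 and TNFSF15, the galectin gene LGALS12 (-0.88, SE 0.129, limma adjusted p = 5.39e-05), the cancer-testis antigen MAGEC1 (-0.82, SE 0.12, limma adjusted p = 5.06e-05), ALPP, placental alkaline phosphatase (-0.78, SE 0.0458, limma adjusted p = 2.93e-12), AQP5, a water channel (-0.77, SE 0.138, limma adjusted p = 0.00068), and SYT12, a synaptotagmin (-0.69, SE 0.14, limma adjusted p = 0.0025). MAGEC1 had 2.25, 2.44 and 2.24 CPM in the day 15 libraries, against 4.38, 4.43 and 3.63 CPM in the controls, and ALPP had 24.6, 23.8 and 22.5 CPM in the day 15 libraries, against 42.2, 40.8 and 39.2 CPM in the controls. The groups were apart in both, as the choice of the largest falls required. ALPP has near-identical copies that could share its reads.

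Genes with few reads included larger ratios. GCG, which encodes glucagon, had 3, 1 and 0 reads in controls, 87, 116 and 111 reads at day 3 and 54, 56 and 54 reads at day 15. The summed day 15 reads were 48.1 times those of controls after scaling for depth, with an exact 95% interval of 18.4 to 178 that covers counting error only. LOC105376861 had 2, 4 and 0 reads in controls, 28, 29 and 24 reads at day 3 and 20, 24 and 18 reads at day 15, a ratio of 12.1 with an interval of 5.26 to 34.3. STEAP4, a metalloreductase, had 30, 27 and 35 reads in controls, 21, 27 and 20 reads at day 3 and 10, 11 and 7 reads at day 15, and its log2 fold was -1.27 (SE 0.265, limma adjusted p = 0.00313); in T47D it was -1.17 (SE 0.15).

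Day 15 was also set directly against day 3. A difference there can be a late change or the return of a day 3 change towards the control level. In that comparison 354 genes (2.47%) were higher and 409 (2.86%) lower, 763 (5.33%) in all, with 35 and 89 without day 3 replicate 1 and 41 and 102 without day 3 replicate 2. Of the genes called against control, 328 were also called against day 3, 190 lower in both and 130 higher in both. Both comparisons use the same day 15 libraries and the same estimate of the spread, so the shared direction is not added support. Because the comparisons of each time with control share the control libraries, their folds are given side by side only.

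Some genes reached their day 15 level mainly after day 3. CST1 had 18.2, 18.4 and 17.5 CPM in controls, 14.7, 15.4 and 16.5 CPM at day 3 and 8.26, 7.26 and 8.48 CPM at day 15, and its day 15 level was below day 3 by a log2 difference of -0.95 (SE 0.0672, limma adjusted p = 5.67e-10). MAGEC1 had 4.38, 4.43 and 3.63 CPM in controls, 5.01, 3.8 and 4.09 CPM at day 3 and 2.25, 2.44 and 2.24 CPM at day 15, with a log2 difference of -0.87 (SE 0.12, limma adjusted p = 7.3e-05) against day 3. Its day 3 libraries were near the controls and its day 15 libraries lay below both. CXCL8 (log2 difference -0.46, SE 0.0942, limma adjusted p = 0.00554), ABCA1 (-0.53, SE 0.0448, limma adjusted p = 1.94e-08), MAL2 (-0.36, SE 0.0365, limma adjusted p = 5.11e-07), L1CAM (-0.27, SE 0.0283, limma adjusted p = 8.35e-07) and CST4 (-0.61, SE 0.0899, limma adjusted p = 0.000179) were lower than at day 3 as well. CYP1B1 was higher than at day 3 by a log2 difference of 0.30 (SE 0.0266, limma adjusted p = 6.22e-08), with a day 3 log2 fold over control of 0.21 and a day 15 one of 0.50. NQO1 changed direction, with log2 folds over control of -0.11 at day 3 and 0.15 at day 15, and a direct difference of 0.26 (SE 0.0265, limma adjusted p = 5.74e-07). The calls against day 3 were held without each of the 6 libraries of these groups, except that of CXCL8 without day 3 replicate 1 (limma adjusted p = 0.0693).

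Other genes stood apart from the controls already at day 3. NRCAM had 2.23, 2.02 and 2.07 CPM in controls, 5.11, 4.77 and 5.02 CPM at day 3 and 5.12, 5.29 and 5.89 CPM at day 15. AKR1C1 had 20.8, 20.9 and 20.6 CPM in controls, 13.6, 14.4 and 14.9 CPM at day 3 and 13.2, 12.8 and 11.8 CPM at day 15. For both genes the day 3 libraries lay on the same side of the controls as the day 15 libraries. Against day 3 the log2 differences were 0.13 (SE 0.103, limma adjusted p = 0.518) for NRCAM, -0.18 (SE 0.059, limma adjusted p = 0.0686) for AKR1C1 and 0.022 (SE 0.017, limma adjusted p = 0.493) for THBS1, none of them called. TNFSF15 was lower than at day 3 by a log2 difference of -0.30 (SE 0.0667, limma adjusted p = 0.0105), with log2 folds over control of -0.83 at day 3 and -1.13 at day 15. Its call against day 3 was lost without day 3 replicate 1 (limma adjusted p = 0.0764), day 3 replicate 2 (0.0538) or day 15 replicate 1 (0.0564).

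Lists differed between the times in the direct comparison. Of 28 genes of cholesterol synthesis 14 were lower at day 15 than at day 3, and of 16 of fatty acid synthesis 8 were, with none higher in either. Over all genes 2.86% were lower and 2.47% higher. At day 3, 13 cholesterol and 6 fatty acid synthesis genes were called higher than in controls, with median log2 folds of 0.11 and 0.044. The day 15 medians of these lists against control were 0.0098 and -0.026, so day 15 lay near the control level. SCD, stearoyl-CoA desaturase, had 1433, 1452 and 1457 CPM in controls, 1839, 1837 and 1841 CPM at day 3 and 1429.9, 1430.3 and 1461 CPM at day 15. Its day 3 libraries stood above both other groups, and the difference of day 15 from day 3 was -0.35 (SE 0.0178, limma adjusted p = 3.5e-13), while against control the day 15 log2 fold was -0.007 and not called. Of 45 mitosis genes 21 were higher than at day 3, of 42 replication genes 9 and of 77 ribosomal protein genes 22, with none lower. Against control, the median log2 folds of these 3 lists were -0.052, -0.0355 and -0.0025 at day 3. At day 15 they were 0.043, 0.023 and 0.031. Of 28 junction genes 7 and of 15 integrins 5 were lower than at day 3, with none higher. Most of these counts were smaller with 1 library fewer. Leaving out day 3 replicate 1, 2 or 3 gave 8, 10 or 11 falls for cholesterol synthesis and 5, 5 or 7 for fatty acid synthesis, and leaving out day 15 replicate 1, 2 or 3 gave 10, 15 or 12 and 5, 8 or 6. In the same order the rises were 6, 6 and 15, then 11, 29 and 11 for mitosis, 1, 1 and 5, then 2, 7 and 4 for replication, and 2, 4 and 14, then 14, 23 and 9 for ribosomal proteins, with 6 ribosomal falls without day 15 replicate 2. The falls were 1, 1 and 6, then 4, 9 and 3 for junctions, and 1, 0 and 4, then 1, 5 and 2 for integrins, where the omission of day 15 replicate 2 gave 1 rise in each.

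**Figure D4:**
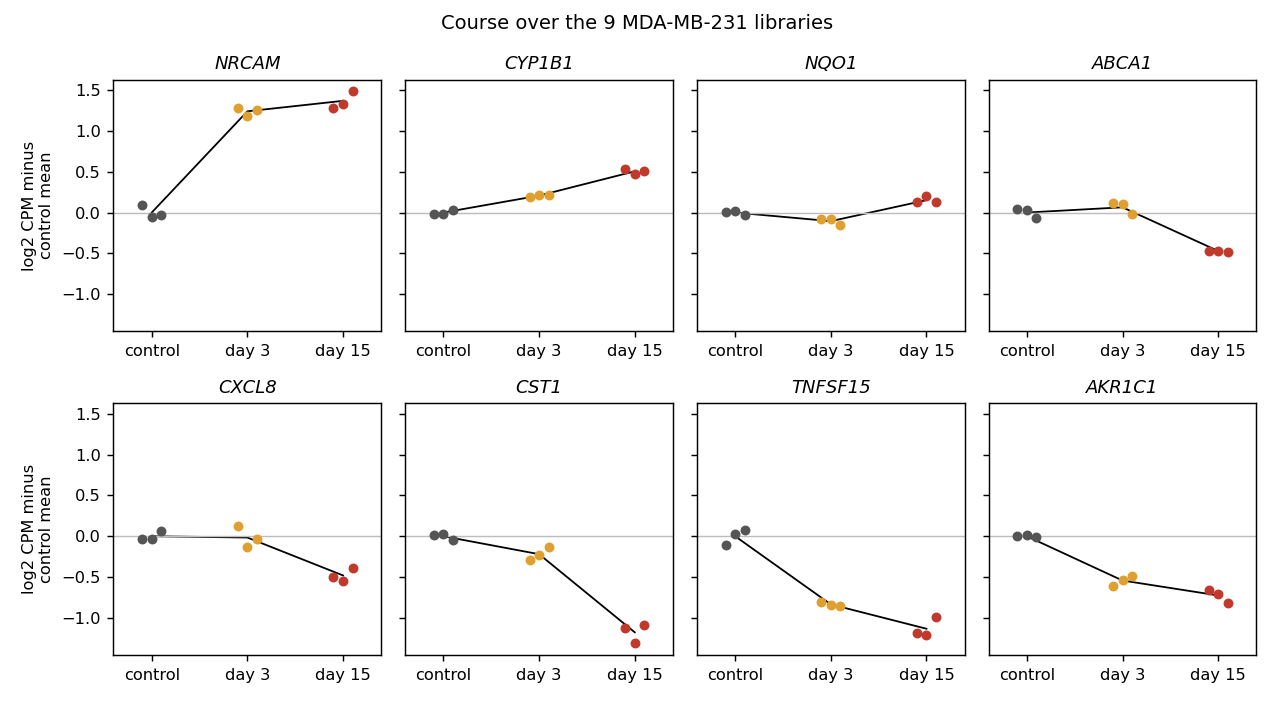
Log2 CPM of 8 genes in each of the 9 MDA-MB-231 libraries minus the mean of the controls (vertical axis), at control (grey), day 3 (orange) and day 15 (red); lines join the group means. CXCL8, CST1 and ABCA1 fall after day 3, and NRCAM, TNFSF15 and AKR1C1 are apart from the controls at day 3.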

How the data were processed

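RNA sequencing of 18 libraries was used, 9 of them of MDA-MB-231 and 6 of those in the main comparison. Per the labels' protocols, column-purified total RNA was sequenced on an Illumina HiSeq instrument. STAR, featureCounts, limma and the build GRCh38.p13 appear in the submitters' processing notes; their versions, the strand setting and the gene filter are not given in the sources read. The deposited tables, 1 per line, hold log2 CPM values, as read from the values themselves. After removal of 3 pseudocount reads scaled to library size, 100% of values were whole reads to within 0.1, which gave the depths. Log2 folds are on the scale with this pseudocount, which understates changes of sparsely read genes.

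limma 3.58.1 (R 4.3.3, statmod 1.5.0) was fitted to the 9 libraries with group means and moderation with trend and robust settings, after a check on simulated data. The threshold for a call was 0.05 after Benjamini-Hochberg adjustment over the 14308 genes; every adjusted p given is of this kind. The members and the 41 gene lists were chosen with earlier results of these data known. Genes were named by rule: G0S2; the 15 largest called rises and falls with mean log2 CPM of 1 or more and no overlap between groups; called genes past 2-fold below that level; up to 5 called members per list, preferring calls held in each omission; and a panel whatever its call. Some genes of the rule and of the lists are not reported here. RMRP, TIPARP, CYP1A1, ABHD5, ABCA1, SCD, CST2, the 7 motif holders and further called members of lists were added after their values were seen. Replicates of a group differed by more than sampling noise (chi-square per degree of freedom 1.76 to 5.91), so each library counts once. Paralogs, overlapping genes and antisense genes may share reads. Alternatives were 1 CPM added, a fit to the 6 libraries, moderation without trend and robust settings, a replicate block, a minimum mean log2 CPM of 1, equal library medians, omission of each library and, chosen after seeing the data, voom on the recovered reads. Sequences are from RefSeq (GRCh38.p14), coordinates of genes from GENCODE 29 (GRCh38).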

Additional observations from a re-analysis of the deposited data

Results flagged for a closer look

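Each gene here had a level at day 15 that differed from its level at day 3 in MDA-MB-231 by limma, at an adjusted p under 0.05 over all genes; the values are log2 differences of day 15 minus day 3. Of the induced gene and the genes of lipid metabolism, the difference was -0.30 for G0S2, -0.16 for PNPLA2, 0.55 for LPL, 0.10 for GPAT3, -0.17 for LPIN1, -0.10 for HMGCS1, -0.40 for SREBF1, -0.35 for SCD, -0.36 for FASN, -0.19 for ELOVL7 and -0.53 for ABCA1. Among inflammatory and NF-kB genes, the difference was -0.30 for TNFSF15, -0.37 for CCL2, -0.46 for CXCL8, -0.27 for ICAM1, -0.15 for TNFAIP2 and -0.12 for TNFRSF10B. Among epithelial genes, the difference was -0.35 for CLDN7, -0.15 for PARD6B, -0.36 for MAL2, -0.10 for KRT8 and -0.41 for SPINT1. Among mesenchymal, integrin and protease genes, the difference was 0.08 for VIM, 0.14 for ZEB1, -0.33 for COL6A3, -0.27 for ITGB3, -0.13 for ITGB4, -0.15 for ITGB5, -0.07 for ITGA3, -0.68 for MMP11 and -0.09 for PLAT. Among protease inhibitors, the difference was -0.95 for CST1, -0.22 for CST3, -0.61 for CST4, -0.10 for TIMP2 and 0.15 for SERPINE2. Among growth factor signalling genes, the difference was -0.43 for GDF15, -0.31 for INHBB, -0.14 for FST, -0.21 for BMP1, 0.15 for NT5E, 0.11 for ETV1 and 0.18 for WNT7B. Among adhesion and guidance genes, the difference was -0.27 for L1CAM and -0.25 for SEMA5A. Among redox, metal and dioxin receptor genes, the difference was 0.26 for NQO1, 0.13 for SLC7A11, 0.20 for MT1X, 0.19 for MT1E, 0.17 for MT2A, 0.30 for CYP1B1, 0.15 for TIPARP and 0.39 for CYP1A1. Among mitosis, ribosome and tRNA synthetase genes, the difference was 0.19 for TTK, 0.10 for TOP2A, 0.13 for RPL26, 0.13 for RPS25, 0.12 for RPS4X and 0.11 for WARS1. Among interferon and antigen presentation genes, the difference was -0.55 for TRIM22, -0.19 for BST2, -0.33 for IFI27, -0.10 for TAPBP and -0.13 for HLA-C. For the remaining genes it was -0.87 for MAGEC1, -0.21 for ALPP, -0.97 for STEAP4, -1.08 for RMRP, -0.15 for SPINT2, -0.08 for FN1, -0.19 for TIMP1, 0.15 for HMGA2, -0.15 for PLXNB2, 0.20 for FTH1, -0.20 for JUP, -0.20 for F11R and -0.12 for DSP. Many of these calls were lost when 1 library was left out, which also leaves fewer libraries for the fit. The 27 held in each of the 6 omissions of a day 15 or day 3 library were those of G0S2, CYP1B1, CST1, MAGEC1, CST4, ICAM1, MAL2, COL6A3, CST3, NT5E, L1CAM, LPIN1, SREBF1, FASN, TTK, RPS25, RPS4X, BST2, NQO1, MT2A, TIPARP, ABCA1, SCD, TIMP1, PLXNB2, FTH1 and F11R. The other 50 were lost in 1 or more omissions. Leaving out day 3 replicate 1 ended 47 of them (limma adjusted p up to 0.257), day 3 replicate 2 ended 45 of them (limma adjusted p up to 0.199) and day 3 replicate 3 ended 14 of them (limma adjusted p up to 0.147). Leaving out day 15 replicate 1 ended 36 of them (limma adjusted p up to 0.162), day 15 replicate 2 ended 7 of them (limma adjusted p up to 0.0769) and day 15 replicate 3 ended 25 of them (limma adjusted p up to 0.18). HMGCS1 was called in none of the 6 omissions (limma adjusted p 0.0636 to 0.199). MT1X was called in none of the 6 omissions (limma adjusted p 0.0503 to 0.154).

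In some genes the day 15 libraries did not overlap the controls in either cell line and lay on opposite sides of them. The difference between lines was not tested, and some of these folds were not called within a line. The share of all genes that meet this is not given here. In MDA-MB-231 alone 24.3% of all genes did not overlap, so the genes below are listed as a description only. For genes lower in MDA-MB-231, the T47D log2 fold of day 15 over control was 0.30 for SYT12, 1.64 for TRIM22, 0.07 for NFKBIA, 0.33 for TNFAIP2, 0.10 for CDH1 and 0.19 for CST3. It was also 0.44 for AREG, 0.36 for FADS3, 0.57 for BST2, 4.07 for IFI27, 0.40 for HLA-C and 0.11 for CCND1. It was also 0.36 for TRAF1, 0.41 for BIRC3, 0.33 for BMP4, 0.26 for TIMP2 and 0.53 for SEMA6B. For genes higher in MDA-MB-231, the T47D log2 fold was -0.12 for FZD1, -0.13 for HMGCS1, -0.39 for SLC7A11, -0.11 for WARS1, -0.53 for PSAT1 and -0.16 for NQO1. It was also -0.22 for TPP1, -0.52 for CYP1A1, -0.95 for NRP1 and -0.19 for EGFR. The CCND1 fold in MDA-MB-231 was -0.014, was not called by limma and changed sign with equal library medians, so its direction there depends on the scaling.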

How the results depend on the processing

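Counts are given as rises and falls of day 15 against control, then against day 3. Moderation without trend and robust settings gave 76 and 156, then 6 and 26; the 6 libraries alone gave 299 rises against control. The replicate numbers are not said to mark shared cultures. Same-numbered control and day 15 libraries correlated at 0.055, 0.093 and 0.280 in their deviations. Control with day 3 gave 0.057, 0.007 and 0.161, and day 15 with day 3 gave -0.031, 0.139 and 0.192. Pairs of unlike number ranged from -0.261 to 0.194, the highest being control replicate 1 with day 15 replicate 2. Whether the numbers mark a shared culture or batch cannot be settled from these values. The fit with the replicate block gave 1038 and 1235, then 885 and 903. Equal library medians gave 555 and 271 against day 3. Without 1 library the counts were 166 to 855 and 291 to 1042, then 35 to 819 and 89 to 845. For lists, moderation without trend and robust settings left 5 NF-kB, 1 junction, 4 epithelial regulator, 4 protease inhibitor, 6 TGF-beta and 4 neural falls and 0 mitosis and 0 ribosome rises. The block gave 14 junction falls, 16 mitosis and 26 ribosome rises, and the 6 libraries 5 ribosome rises. Without 1 library falls were 5 to 7 (ligands), 7 to 11 (NF-kB), 4 to 11 (junctions), 4 to 8 (epithelial regulators), 6 to 9 (protease inhibitors), 8 to 12 (TGF-beta) and 7 to 13 (neural), and rises 2 to 16 (mitosis) and 4 to 19 (ribosome). Genes that changed sign were among those not called as reported: MYC (0.0093), CCND1 (0.0034), CXCL2 (0.0064), REL (0.0154) and SCD (0.0101) with equal medians, CXCL2 (0.0089) and NFKBIZ (-0.0 to 4 decimals) with voom on the recovered reads, and over the omissions CXCL2 (-0.193 to 0.1248), REL (-0.0485 to 0.0748) and NFKBIZ (-0.0594 to 0.0645). The cause of these shifts was not tested. Of 198 calls among genes chosen by rule or named in the text, 63 were kept in every setting tried and 111 in each omission. Depth limits genes with few reads, such as CDH1, STEAP4 and GCG, most.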

Other observations

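SAA1, an acute phase protein, had 6.81, 7.36 and 7.5 CPM in the day 15 libraries, against 10.6, 10.1 and 9.47 CPM in the controls. Each day 15 library lay below each control (log2 fold -0.47, SE 0.0819, limma adjusted p = 0.000474). SAA2, a near-identical neighbour, had a log2 fold of -0.63 (SE 0.18, limma adjusted p = 0.0288) and was not called in 4 of 6 omissions, where its adjusted p reached 0.125. RN7SK, a small nuclear RNA without a poly(A) tail, had 333, 703 and 451 reads in the day 15 libraries, against 858, 1072 and 1102 reads in the controls, with a log2 fold of -0.86 (SE 0.369, limma adjusted p = 0.226); day 15 replicate 2 held the most reads of its group.

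UCP2, an uncoupling protein of the mitochondrial membrane, had 80.3, 83.8 and 76.8 CPM in the day 15 libraries, against 93.95, 92.5 and 89.1 CPM in the controls, and fell (-0.19, SE 0.0339, limma adjusted p = 0.000529). TPP1, a lysosomal peptidase, had 113, 108 and 122 CPM in the day 15 libraries, against 99.4, 101 and 103 CPM in the controls and rose (0.18, SE 0.0348, limma adjusted p = 0.00203). In both genes the groups did not overlap. GREB1, an estrogen-induced gene in receptor-positive cells, had 2.1, 2.16 and 2.02 CPM in the day 15 libraries, against 1.51, 1.53 and 1.43 CPM in the controls, with a log2 fold of 0.47 (SE 0.137, limma adjusted p = 0.0327) that was not called in any of the 6 omissions. IGFBP4, which binds insulin-like growth factors, fell (-0.14, SE 0.0204, limma adjusted p = 5.06e-05).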
